A study of Homo sapiens with 2 samples.

Results

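The protein disulfide isomerase (PDI) family was described through 8 genes chosen by symbol from a deposited table of 332 chaperone and folding genes: P4HB, PDIA2, PDIA3, PDIA4, PDIA5, PDIA6, ERP44 and TXNDC5. All 8 were in the table. The study concerned HSP70, RNA binding and RNA polymerase III. Its RNA-seq part measured total RNA of HEK293 Flp-In T-Rex cells. These descend from human embryonic kidney cells and hold a site for inserting a tetracycline-controlled transgene; the extraction text calls them HEK293T. There were 2 libraries, replicates 1 and 2 of 1 group, so no treatment could be compared with a control. The deposited counts of both libraries carry the prefix NHS, and the labels do not say what it means. The series describes derived lines carrying tagged GFP or tagged HSPA1A, induced with tetracycline, but the sample labels do not say whether such a line was sequenced or whether it was induced. Nor do they say whether the replicates came from separate cultures, so the spread between them may be technical.

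PDI proteins are thioredoxin-fold enzymes of the endoplasmic reticulum (ER). They form, break and rearrange disulfide bonds in proteins on the secretory pathway. The active sites carry a pair of cysteines with a pair of residues between them, and the oxidases of the ERO1 family pass oxidising equivalents to P4HB, which oxidises clients in turn. Most members end in a short peptide, of the KDEL type, by which they are returned from the Golgi to the ER.

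The coding sequences show these hallmarks, and also where the members differ. The stretches below are the first site of each member at which a tryptophan codon is followed by a cysteine codon, from its principal transcript in GENCODE 29, sense strand. The capitals mark the cysteine codon and the next 3 codons.

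P4HB: gccccttggTGTGGCCACTGCaaggctctg
PDIA2: gccccgtggTGTGGGCACTGCcaggccctg
PDIA3: gccccctggTGTGGACACTGCaagagactt
PDIA4: gctccatggTGTGGACATTGCaagcagttt
PDIA5: gccccctggTGCAGCATGTGCaagaggatg
PDIA6: gctccatggTGTGGTCACTGTcaaagatta
TXNDC5: gcgccctggTGTGGACACTGCcagcggctg
ERP44: gctgactggTGTCGTTTCAGTcagatgttg

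In 7 members the capitals begin and end with a cysteine codon. P4HB, PDIA2, PDIA3 and PDIA6 each held 2 such sites, and PDIA4, PDIA5 and TXNDC5 each held 3. ERP44 held 0, since its stretch begins with a cysteine codon and ends with a serine codon. ERP44 is known to bind clients, and ERO1 oxidases, through this single cysteine and to bring them back to the ER. The coding regions ranged from 406 codons (ERP44) to 645 codons (PDIA4).

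The ends of the coding regions are shown for 4 members because the retrieval peptide is not the same in all of them. The capitals mark the last 4 codons before the stop codon.

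P4HB: cagaaagctgtgAAAGATGAACTGtaa
PDIA3: aagaagaaggcaCAGGAGGATCTCtaa
PDIA4: ctgagcaggaccAAGGAAGAGCTTtga
ERP44: ctattgagggatCGAGATGAGCTTtaa

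The last codon of all 4 is a leucine codon. The first of the 4 marked codons differs, with lysine codons in P4HB and PDIA4, a glutamine codon in PDIA3 and an arginine codon in ERP44.

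Library totals behind the deposited values were 6828264 reads in replicate 1 and 4445676 reads in replicate 2. PDI family genes took 6697 reads in replicate 1, a share of 0.0981% (Wilson 95% bounds 0.0958% and 0.1005%). In replicate 2 they took 4154 reads, a share of 0.0934% (bounds 0.0906% and 0.0963%). Intervals cover counting error only. The deposited unit is RPKM, reads scaled to gene length and library total, in which the kilobases are those of the whole gene span with introns. Spans of the members ran from 4051 bases for PDIA2 to 158202 bases for PDIA5, while their principal transcripts ran from 1698 to 4854 bases. Levels of different genes are therefore given on 3 named scales: per kilobase of gene span (the authors' RPKM), per kilobase of exon union (all annotated exons merged) and per kilobase of principal transcript (1 transcript a gene, by the APPRIS tag). The last 2 scales assume that the counted reads are exonic, which the sources used here do not say.

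**Figure D1:**
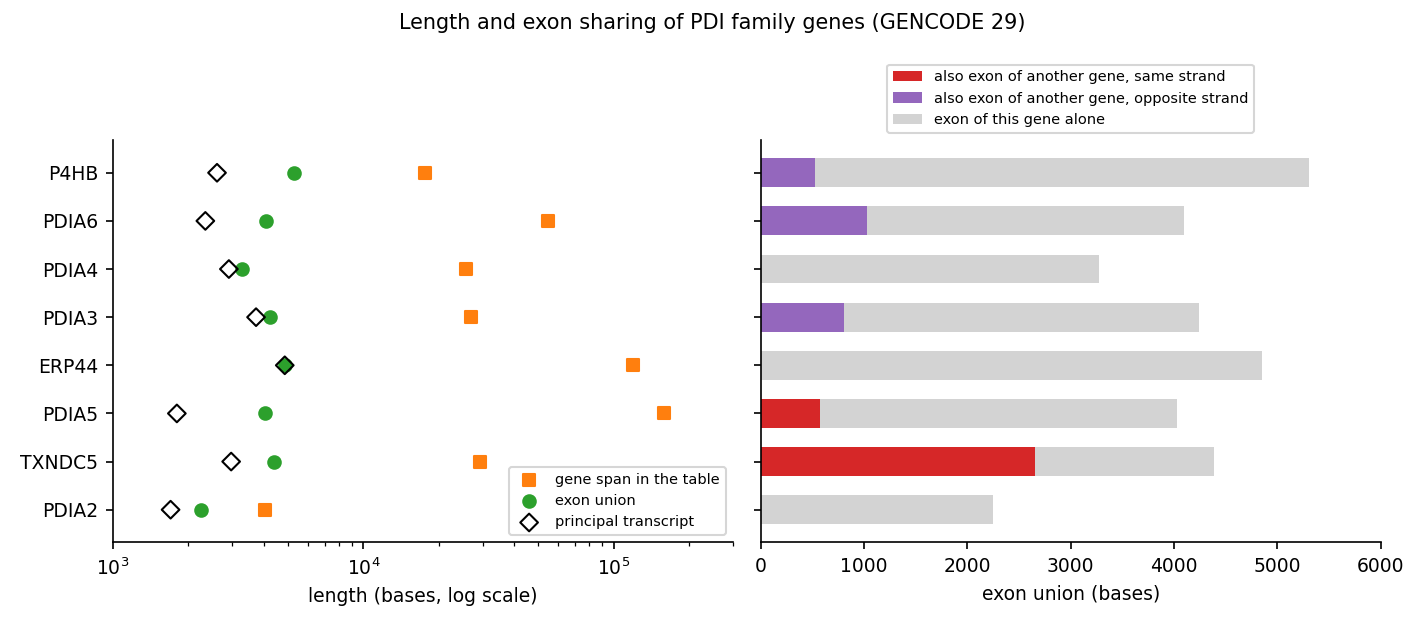
Left, length in bases on a log scale of the gene span in the table (squares), the exon union (filled circles) and the principal transcript (diamonds) for each PDI family gene. Right, exon union in bases split into exon of the gene alone (grey) and bases that are also exon of another gene on the same strand (red) or the opposite strand (purple); 2658 of the 4387 bases of TXNDC5 are shared.

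The family fell into 4 abundant and 4 low genes on all 3 scales, a grouping made after the values were seen. Low here is relative to the other members. P4HB, PDIA4, PDIA3 and PDIA6 stood at 3.86 to 16.9 RPKM per kilobase of gene span, and PDIA2, ERP44, TXNDC5 and PDIA5 at 0.0567 to 0.320 RPKM. Per kilobase of principal transcript the abundant genes stood at 52.4 to 115 RPKM and the low genes at 0.762 to 6.32 RPKM. The abundant genes together held 97.6 ± 0.0925% of the family's summed RPKM per kilobase of gene span (SD, n = 2), 95.7 ± 0.568% per kilobase of principal transcript and 94.9 ± 0.646% of the family's reads. In total 4 of 8 members reached a mean of 1 RPKM per kilobase of gene span, while 46.4% of all genes of the table did. Per kilobase of exon union 7 of 8 reached it, against 74.4% of all genes, and per kilobase of principal transcript 7 of 8, against 77.1%. The members' share was thus near that of the table on the first scale, and with 8 genes the distance on each of the other scales is about 1 gene. The median of the 8 members was 2.09 RPKM per kilobase of gene span, and that of all 332 genes 0.784 RPKM. On the transcript scale the medians were 29.4 RPKM for the members and 8.04 RPKM for all genes. On these 2 scales the members' median fell in the gap between the abundant and the low genes, and no member stood near it. All 4 low genes lay below the median of all genes on these scales. Per kilobase of exon union the median of all genes was 5.17 RPKM. Of the low genes ERP44 alone stood above it, at 6.32 RPKM.

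**Figure D2:**
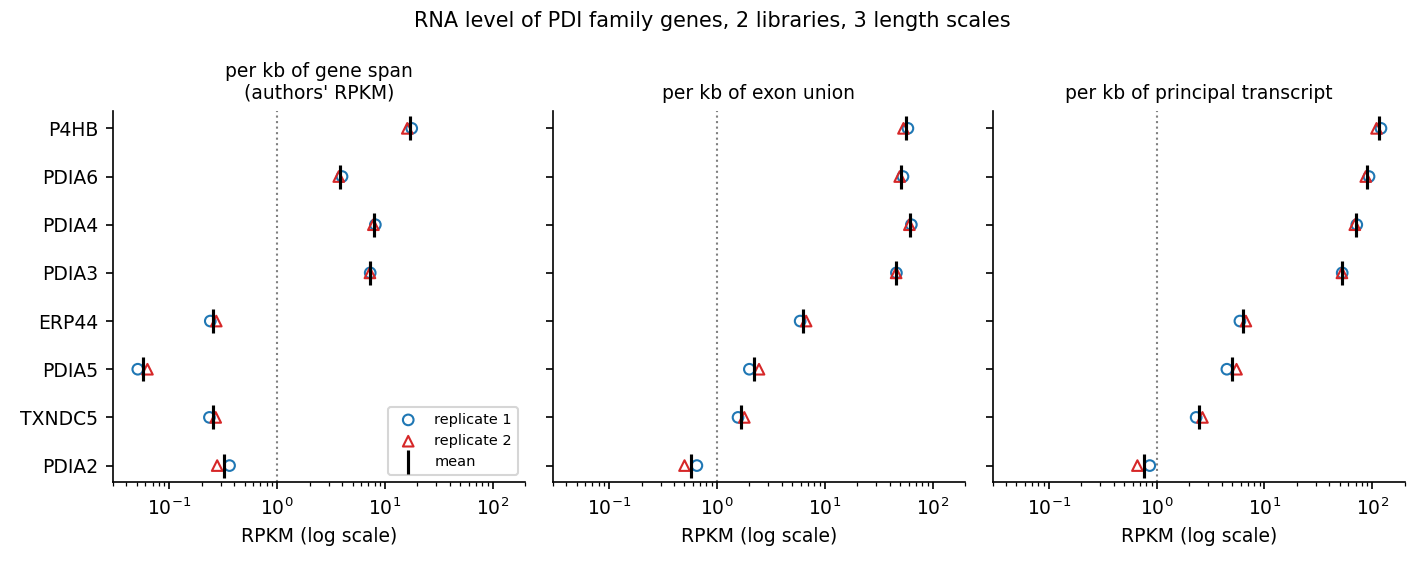
RPKM on a log scale of each PDI family gene in replicate 1 (circles) and replicate 2 (triangles), with the mean (bar), on 3 length scales; the dotted line is 1 RPKM. P4HB, PDIA6, PDIA4 and PDIA3 lie to the right of the other members on every scale, and PDIA5 moves most between scales, from 0.0567 to 4.99 RPKM.

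P4HB is the archetypal PDI. It is also the beta subunit of collagen prolyl 4-hydroxylase and a subunit of the microsomal triglyceride transfer protein (ENSG00000185624, chromosome 17, 81843159 to 81860856, minus strand, GRCh38). It had 2139 reads in replicate 1 and 1267 in replicate 2. Per kilobase of gene span it stood at 17.7 RPKM in replicate 1 and 16.1 RPKM in replicate 2, a mean of 16.9 ± 1.13 RPKM (SD, n = 2), and was the highest member in both libraries. Among the 332 genes it ranked 23 by gene span and 24 by principal transcript, where it stood at 115 ± 7.68 RPKM. Its share of the family's summed RPKM was 45.8 ± 1.08% per kilobase of gene span and 33.6 ± 0.962% per kilobase of principal transcript. Per kilobase of exon union it stood at 56.4 ± 3.77 RPKM and PDIA4 at 62.3 ± 1.87 RPKM, so that PDIA4 came first on that scale. Annotation lists 24 transcripts of P4HB, and its exon union of 5303 bases is longer than the principal transcript of 2603 bases. The other genes of the table nearest to P4HB on the log2(RPKM + 1) scale, per kilobase of gene span and over 2 libraries, were CCT4 at 16.7 RPKM (a difference of -0.01) and CANX at 17.5 RPKM (0.05).

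PDIA4, a member with an additional active site (also called ERp72; ENSG00000155660, chromosome 7, 149003062 to 149028662, minus strand), had 1423 reads in replicate 1 and 888 in replicate 2. Per kilobase of gene span it stood at 8.14 RPKM in replicate 1 and 7.80 RPKM in replicate 2. PDIA3, the member that works with the lectin chaperones calnexin and calreticulin on glycoproteins (ERp57; ENSG00000167004, chromosome 15, 43746410 to 43773278, plus strand), had 1338 reads and 866 reads. It stood at 7.29 RPKM in replicate 1 and 7.25 RPKM in replicate 2 per kilobase of gene span. PDIA4 was higher than PDIA3 in both libraries, by 0.12 on the log2(RPKM + 1) scale (SE 0.097, 95% interval -0.07 to 0.31, normal approximation on the pooled SE), an interval that holds 0. By principal transcript PDIA4 stood at 70.3 ± 2.11 RPKM and PDIA3 at 52.4 ± 0.219 RPKM (SD, n = 2), a difference of 0.42 (SE 0.14, 95% interval 0.15 to 0.68). The standard error comes from the replicate SD pooled over genes of at least 1 RPKM. With 2 replicates the smallest p of an exact test is 0.5, and the order of genes therefore carries no p-value.

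PDIA6, which also acts on the stress sensors of the ER (P5; ENSG00000143870, chromosome 2, 10783391 to 10837977, minus strand), had 1489 reads in replicate 1 and 904 in replicate 2. After P4HB these were the most reads of any member. Over its span of 54586 bases it stood at 3.99 RPKM in replicate 1 and 3.73 RPKM in replicate 2, below P4HB, PDIA4 and PDIA3. Over its principal transcript of 2338 bases it stood at 93.3 RPKM in replicate 1 and 87.0 RPKM in replicate 2, below P4HB and above PDIA4 and PDIA3. PDIA3 was 1.89 ± 0.0853 times PDIA6 on the span scale and 0.582 ± 0.0263 times PDIA6 on the transcript scale (SD, n = 2). Its share of the family's summed RPKM was 10.5 ± 0.0650% per kilobase of gene span and 26.3 ± 0.296% per kilobase of principal transcript.

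ERP44 (ENSG00000023318, chromosome 9, 99979185 to 100099000, minus strand) had 196 reads in replicate 1 and 145 in replicate 2. It stood at 0.240 RPKM in replicate 1 and 0.272 RPKM in replicate 2 per kilobase of gene span, and at 6.32 ± 0.570 RPKM per kilobase of principal transcript. That made it the highest of the 4 low genes on the transcript scale. PDIA3, the lowest of the abundant genes there, was 8.33 ± 0.787 times ERP44 (SD, n = 2).

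PDIA5 (PDIR; ENSG00000065485, chromosome 3, 123067025 to 123225227, plus strand) had 55 reads in replicate 1 and 44 in replicate 2. It was the lowest member per kilobase of gene span, with 0.0509 RPKM in replicate 1 and 0.0626 RPKM in replicate 2. Per kilobase of principal transcript it stood at 4.48 RPKM and 5.50 RPKM, above TXNDC5 and PDIA2. The mean changed 87.9-fold between these scales, compared with 2.39-fold for PDIA2, whose span is the shortest. Per kilobase of principal transcript ERP44 was above PDIA5 in both libraries. The difference was 0.29 on the log2(RPKM + 1) scale (SE 0.14, 95% interval 0.03 to 0.56). That interval does not hold 0, but its pooled SE understates the error of PDIA5. Their exact Poisson 95% intervals overlapped in both libraries, at 5.11 to 6.80 RPKM for ERP44 and 3.37 to 5.83 RPKM for PDIA5 in replicate 1. Overlap alone does not show equal levels, and the order of this pair remains uncertain.

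TXNDC5 (ERp46, with 3 thioredoxin domains; ENSG00000239264, chromosome 6, 7881517 to 7910788, minus strand) had 47 reads in replicate 1 and 35 in replicate 2. Per kilobase of gene span it stood at 0.235 RPKM and 0.269 RPKM, and per kilobase of principal transcript at 2.49 ± 0.236 RPKM. The annotated readthrough gene BLOC1S5-TXNDC5, which lies on the same strand, covers 2658 of its 4387 exon bases (60.6%). Of 2915 windows of 50 bases in the principal transcript, 2610 (89.5%) also occur in that gene. The sources used here do not state how reads that lie in both genes were counted. If all counted reads came from the 1729 exon bases that are not shared, TXNDC5 would stand at 4.27 ± 0.405 RPKM, and PDIA5, treated the same way, at 2.599 ± 0.377 RPKM. The order of TXNDC5 and PDIA5 turned with the scale: TXNDC5 was 4.46 ± 0.226 times PDIA5 per kilobase of gene span and 0.501 ± 0.0254 times PDIA5 per kilobase of principal transcript (SD, n = 2). The level of TXNDC5 is uncertain for these reasons.

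PDIA2, a member known mainly from pancreas (PDIp; ENSG00000185615, chromosome 16, 283164 to 287215, plus strand), had 10 reads in replicate 1 and 5 in replicate 2. Exact Poisson 95% intervals were 4.80 to 18.4 reads and 1.62 to 11.7 reads. It stood at 0.362 RPKM in replicate 1 and 0.278 RPKM in replicate 2 per kilobase of gene span, above ERP44, TXNDC5 and PDIA5. Per kilobase of principal transcript it was the lowest member, at 0.762 ± 0.142 RPKM, and its Poisson interval lay below that of TXNDC5 in both libraries. It was the 1 member under 1 RPKM on that scale. Among other genes known mainly from elsewhere, PDILT of testis had 1 read in replicate 1 and 0 in replicate 2, and AGR2 of mucosal secretory cells had 1 and 2 reads. CLGN of testis had 135 and 76 reads, or 6.06 ± 0.622 RPKM per kilobase of principal transcript. The markers AGR3, CASQ1 and CASQ2 were not in the table, and no marker of kidney cells could be checked in a table of folding genes.

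In order of the mean per kilobase of gene span (P4HB, PDIA4, PDIA3, PDIA6, PDIA2, ERP44, TXNDC5, PDIA5), 4 of 7 neighbouring pairs differed in the same direction in both libraries with a 95% interval of the difference that did not hold 0. The pairs that did not were PDIA4 and PDIA3, PDIA2 and ERP44 (log2 difference 0.07, SE 0.097), and ERP44 and TXNDC5 (0.00, SE 0.097). Per kilobase of principal transcript the order was P4HB, PDIA6, PDIA4, PDIA3, ERP44, PDIA5, TXNDC5 and PDIA2, and 7 of 7 neighbouring pairs passed. The pooled standard error is 1 value for each scale, whatever the reads of a gene. It understates the error of PDIA2 and, on the transcript scale, that of TXNDC5 and PDIA5. For the 4 abundant genes, with 866 to 2139 reads a library, it may be too wide. An interval that holds 0 does not show equal levels of such a pair. On the span scale the added 1 RPKM compresses differences between genes below 1 RPKM. There TXNDC5 was 4.46 ± 0.226 times PDIA5 (SD, n = 2), a difference of only 0.24 in log2(RPKM + 1). Per kilobase of exon union the 4 abundant genes, from PDIA4 to PDIA3, had intervals that held 0 for all 3 neighbouring pairs. Of the 28 pairs of members, 6 changed order between gene span and principal transcript. They were PDIA6 with PDIA4 and PDIA3, PDIA2 with ERP44, TXNDC5 and PDIA5, and TXNDC5 with PDIA5. Orders here are those of the means. Per kilobase of gene span PDIA2 was 1.26 ± 0.346 times ERP44 and 1.28 ± 0.357 times TXNDC5 (SD, n = 2), so these orders were uncertain on that scale.

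Other members also share sequence with other genes. Of the exon bases of PDIA6, 1033 (25.2%) lie opposite exons of ATP6V1C2. Of 2289 windows of 50 bases in its principal transcript, read on either strand, 939 (41.0%) also occur in that gene. Of the exon bases of PDIA3, 803 (18.9%) lie opposite exons of other genes, among them ELL3. Of 3678 such windows of PDIA3, 1343 (36.5%) occur in another gene, and 649 (17.6%) occur in the processed pseudogene PDIA3P1 on chromosome 1. In P4HB, 529 exon bases (10.0%) lie opposite an antisense gene, and in PDIA5, 576 (14.3%) lie in same-strand exons of SEC22A or MIR7110. Of the windows, 437 of 2554 (17.1%) in P4HB and 0 of 1750 in PDIA5 occur in another gene. The exons of PDIA2, PDIA4 and ERP44 share 0 bases with another gene. The library kit keeps strand, but the sources used here do not state whether counting used it, so reads of opposite genes cannot be told apart.

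**Figure D3:**
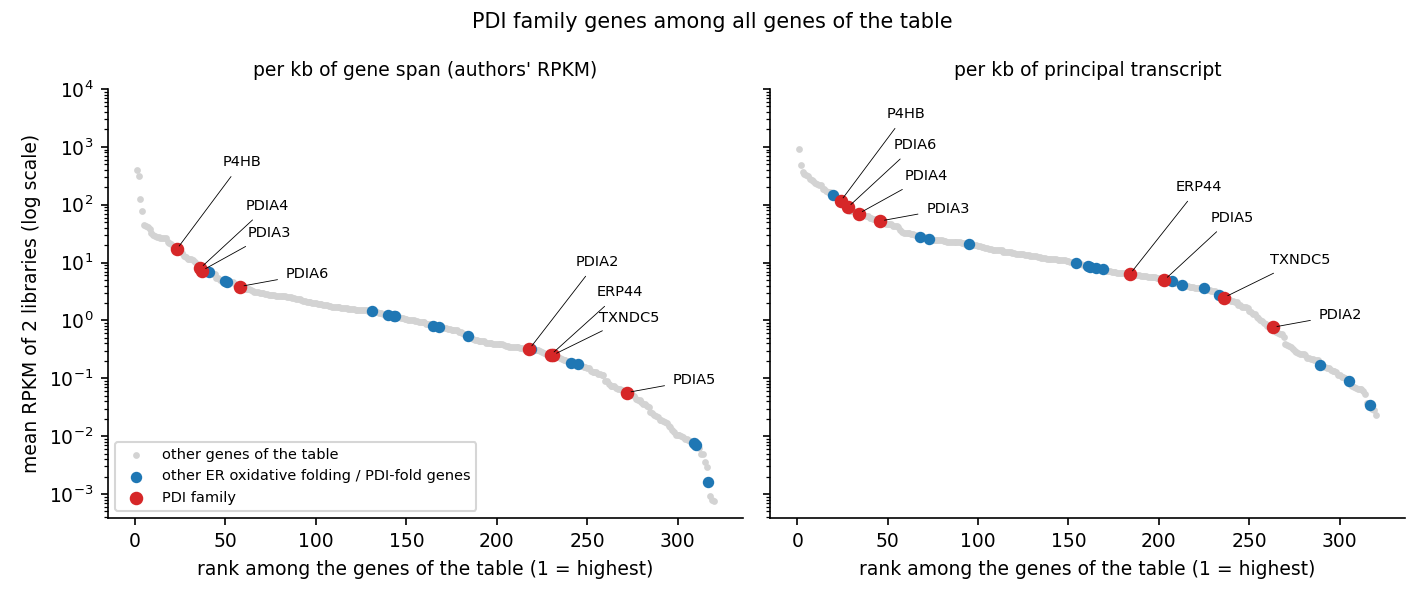
Mean RPKM of both libraries on a log scale against rank for each gene of the table with at least 1 read, per kilobase of gene span (left) and of principal transcript (right), with the PDI family in red and other ER oxidative folding and PDI-fold genes in blue. P4HB ranks 23 and 24, PDIA6 ranks 58 and 28, and PDIA5 ranks 272 and 203 on these scales.

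Other genes of ER oxidation and of the PDI fold were read from a list of 20, of which 16 were in the table. At a mean of 1 RPKM per kilobase of gene span 7 of 16 were counted, next to 4 of 8 PDI family genes and 46.4% of the table. The list's median was 0.797 RPKM on that scale and 7.999 RPKM per kilobase of principal transcript, next to 0.784 and 8.04 RPKM for all genes. PRDX4, an ER peroxiredoxin that feeds oxidising equivalents into PDI proteins, was the highest at 6.75 ± 0.817 RPKM per kilobase of gene span. By principal transcript it stood at 149 ± 18.0 RPKM, above P4HB. PDILT was the lowest of the list on both scales, at 0.00161 RPKM per kilobase of gene span.

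The oxidases upstream of P4HB were lower than P4HB on every scale. ERO1A had 303 reads in replicate 1 and 208 in replicate 2, and ERO1B 248 and 157 reads. P4HB was 6.98 ± 0.537 times their sum per kilobase of principal transcript, 12.5 ± 1.02 times per kilobase of gene span and 4.44 ± 0.329 times per kilobase of exon union (SD, n = 2). ERP44, which holds ERO1A in the early secretory pathway, was 0.732 ± 0.0387 times ERO1A per kilobase of principal transcript, but 0.314 ± 0.0166 times per kilobase of gene span. Per kilobase of exon union ERP44 was 1.04 ± 0.0553 times ERO1A, so their order depends on the length used.

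Of 11 listed partners of PDI proteins, 8 were in the table. CALR was the highest of them, at 77.0 ± 1.81 RPKM per kilobase of gene span, and P4HA3 the lowest. By principal transcript HSP90B1 was the highest, at 271 ± 1.07 RPKM, above CALR at 239 ± 5.63 RPKM. The ratios below and those to the oxidases were chosen after the values were seen. The alpha subunits of prolyl 4-hydroxylase, which carry the catalytic site and need P4HB to stay soluble, were lower than P4HB. P4HA1 stood at 14.2 ± 0.0535 RPKM, P4HA2 at 2.78 ± 0.517 RPKM and P4HA3 at 0.262 ± 0.189 RPKM per kilobase of principal transcript. P4HB was 6.66 ± 0.339 times the sum of these 3 genes on that scale, 3.94 ± 0.250 times per kilobase of exon union and 30.9 ± 1.55 times per kilobase of gene span (SD, n = 2). PDIA3 was lower than both lectin chaperones it works with. It was 0.219 ± 0.00425 times CALR and 0.240 ± 0.00821 times CANX per kilobase of principal transcript. On the other scales it was 0.0944 and 0.275 times CALR, and 0.415 and 0.309 times CANX.

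Between the libraries, 0 of 8 members passed an exact two-sided binomial test with Benjamini-Hochberg adjustment over all 320 genes with a read. Across all genes tested 4.69% were called, with 6 (1.88%) higher and 9 (2.81%) lower in replicate 2. With replicate 2 rescaled to a median gene ratio of 1, the split was 15 higher and 4 lower, and still 0 members were called. The test compares 2 libraries of 1 group and covers counting error only. Over the 275 genes with at least 10 reads the libraries differed by more than counting error (chi-square 1284, p = 7.03e-130), so these p-values and the Poisson intervals above understate the spread between libraries. P4HB was the 1 member with an unadjusted p under 0.05, at 0.910 times in replicate 2 over replicate 1 (exact 95% interval 0.848 to 0.976, adjusted p = 0.105, exact binomial test). PDIA3 stood at 0.994 times (0.912 to 1.08), PDIA4 at 0.958 (0.880 to 1.04) and PDIA6 at 0.932 (0.858 to 1.01). Intervals of the low genes were wider, with ERP44 at 1.14 times (0.910 to 1.42), PDIA5 at 1.23 (0.807 to 1.86), TXNDC5 at 1.14 (0.717 to 1.81) and PDIA2 at 0.768 (0.206 to 2.47).

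**Figure D4:**
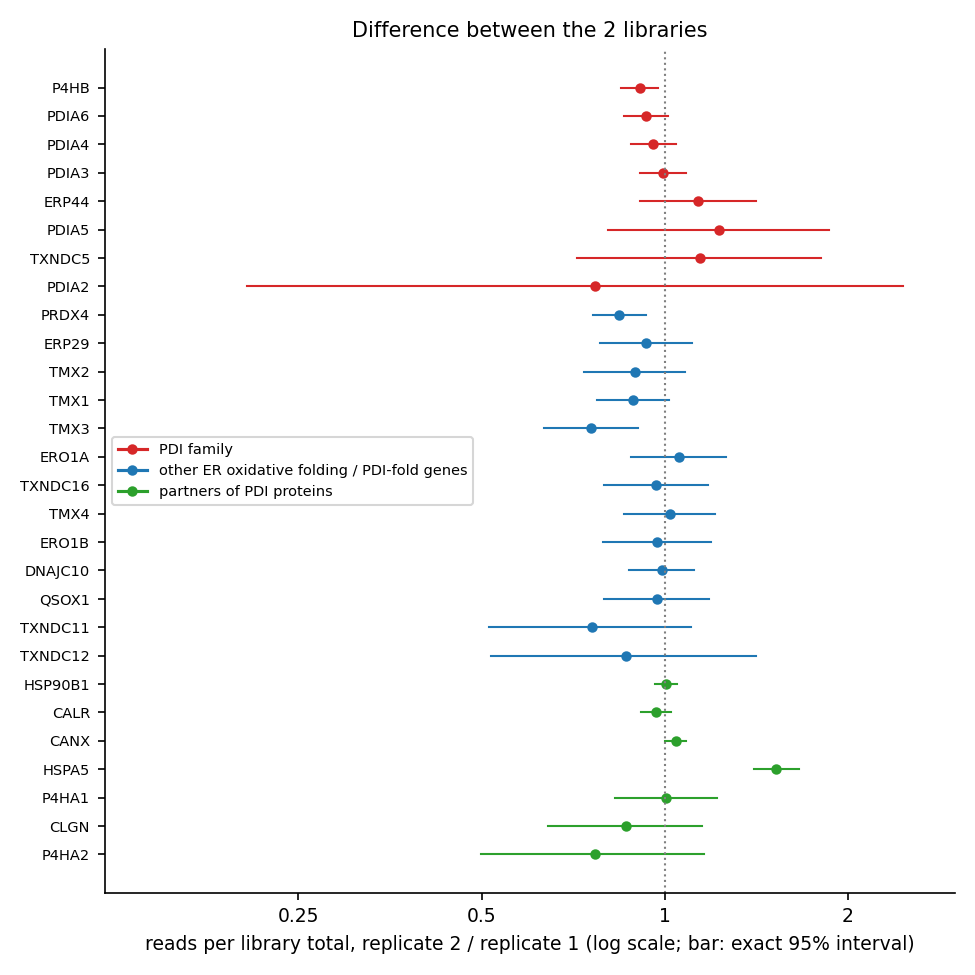
Reads scaled to the library total in replicate 2 over replicate 1, on a log scale, with exact 95% intervals, for the PDI family (red), other ER oxidative folding and PDI-fold genes (blue) and partners (green) with at least 10 reads. HSPA5 lies at 1.53 with an interval from 1.40 to 1.66, while the 4 abundant PDI genes lie between 0.910 and 0.994.

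Among list genes and partners, 3 were called: 2 of 16 list genes and 1 of 8 partners, next to 4.69% of all genes tested. HSPA5, the HSP70 of the ER (BiP), had 1070 reads in replicate 2 and 1076 reads in replicate 1, or 1.53 times the library-scaled level (1.40 to 1.66, adjusted p = 2.82e-20, exact binomial test). PRDX4 had 607 reads in replicate 2 and 1107 reads in replicate 1, or 0.842 times (0.762 to 0.931, adjusted p = 0.0188, exact binomial test). TMX3, a membrane-bound PDI, had 186 reads in replicate 2 and 377 reads in replicate 1, or 0.758 times (0.632 to 0.906, adjusted p = 0.0402, exact binomial test). With replicate 2 rescaled to a median gene ratio of 1, the calls of PRDX4 (adjusted p = 0.0519) and TMX3 (adjusted p = 0.0654) were lost in the same exact binomial test. The spread of HSPA5 enters any ratio to it: PDIA6 was 1.41 times HSPA5 in replicate 2 and 2.31 times in replicate 1 per kilobase of principal transcript. Per kilobase of exon union PDIA6 was 0.805 times HSPA5 in replicate 2 and 1.32 times in replicate 1. Per kilobase of gene span the ratios were 0.101 in replicate 2 and 0.166 in replicate 1. Which gene is higher therefore depends on the length used and, per kilobase of exon union, also on the library. The difference between PDI genes and HSPA5 was not tested.

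PDI genes and HSPA5 are known targets of the unfolded protein response, which acts in part through the ER stress response element ERSE, which is CCAAT and CCACG with 9 bases of any kind between them. RefSeq promoters (GRCh38.p14, 250 bases before to 50 after each start) were found for 7 members, all but PDIA3, and searched for it on both strands. It was in 1 of 10 promoters of these members, 1 of the 2 of PDIA6. It was in 9 of 349 promoters of genes of the table (2.58%) and in 0.0769% of all 35116 promoters. The 349 promoters belong to 266 of the 332 genes of the table, and 7 of these 266 genes carried the element. Among the listed genes ERO1B, CALR, CANX (3 of 4 promoters, which overlap), HSPA5 and HSP90B1, the HSP90 of the ER, also carried it. The elements searched and the windows shown were chosen after the promoter sequences were seen. The windows show the element in capitals with 20 bases on each side, each on the strand of its gene.

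PDIA6: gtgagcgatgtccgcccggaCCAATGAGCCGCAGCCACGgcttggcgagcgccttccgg
HSPA5: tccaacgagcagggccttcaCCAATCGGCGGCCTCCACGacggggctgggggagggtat
HSP90B1: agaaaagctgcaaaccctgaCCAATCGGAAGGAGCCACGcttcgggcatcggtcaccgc

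The windows are chr2:10812833-10812891 (minus strand), chr9:125241371-125241429 (minus strand) and chr12:103930196-103930254 (plus strand). The element began 86 bases before the start in PDIA6, 66 bases before it in HSPA5 and 194 bases before it in HSP90B1, whose promoter holds 2 copies. In replicate 2 over replicate 1 PDIA6 stood at 0.932 times, HSPA5 at 1.53 times and HSP90B1 at 1.01 times, and the other listed carriers ERO1B, CALR and CANX at 0.972, 0.967 and 1.04 times. A shorter element of the same response, TGACGTGG, was in 1 of the 10 promoters, that of a start of TXNDC5, in 1.72% of the promoters of genes of the table and in 0.729% of all promoters. A second form, ERSE-II, which is ATTGG and CCACG with 1 base between them, was in 0 of the 10, in 0.287% of the promoters of genes of the table and in 0.0541% of all promoters. A match describes letters in these windows and not binding, and the absence of a match says nothing about regulation of the other members searched.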

How the data were processed

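Total RNA of 2 libraries was extracted with Trizol and prepared as stranded libraries, per the labels' protocols. Tools named without a role in the submitters' processing notes are STAR 2.6.0b, Bowtie2 2.4.2 and Trim Galore 0.6.4, and the build is GRCh38. The sources used here do not state the counting program, the annotation or the use of strand. The authors deposited read counts for each replicate and a mean RPKM, per the file headers. The deposited RPKM equals reads divided by gene span and a library total; the totals were recovered by least squares (largest relative misfit 8.37e-14).

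Replicate RPKM values were computed from counts and totals with gene span, and with exon union and principal transcript lengths from GENCODE 29, which held all 332 identifiers. Coding stretches came from its transcripts. With 1 group no count model could be fitted, so libraries were compared by exact binomial tests (SciPy 1.17.1), tested on simulated data. Orders used a pseudocount of 1 RPKM and a pooled replicate SD (0.097 log2 units over 154 genes, gene span). Alternatives were other thresholds, pseudocounts, lengths and scalings, and each replicate left out. Principal transcript and unshared-exon lengths were added after values were seen, as were the promoter search and the ratios between genes. Members, lists and tests were chosen with earlier results of these data known. By the rule for named genes, the 8 members, the highest, lowest and called genes of each list and the 2 genes nearest to P4HB in level were named, and any other list gene in the table could be. Genes named for shared exons come from the annotation.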

Additional observations from a re-analysis of the deposited data

How the results depend on the processing

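Of 204 recalculated values, 129 kept their direction and call or stayed within the replicate spread, 61 moved, 4 newly passed the limit, 2 fell short of it and 8 reversed. With 2 replicates, a member's RPKM or share with either replicate left out lies within that spread by construction. Such values are among the 129 but were fixed in advance. A shorter length can only raise an RPKM, and 44 of the moves came with another length. Among the 44 are also moves of family shares and of the count of passing pairs, which can go either way. With the reads of the table as library total all 8 members moved, with P4HB at 598 RPKM against 16.9 and PDIA5 at 2.01 RPKM against 0.0567, as a smaller total raises every RPKM. With exon union length the log2 differences became -0.14 for P4HB minus PDIA4, -0.15 for PDIA3 minus PDIA6, -2.21 for PDIA2 minus ERP44 and -0.26 for TXNDC5 minus PDIA5. With principal transcript length the last 3 became -0.77, -2.05 and -0.78, and 7 neighbouring pairs passed instead of 4. With either length 7 members instead of 4 reached 1 RPKM, and 13 genes of the ER oxidative folding list instead of 7, whose median became 6.20 RPKM with exon union and 7.999 RPKM with principal transcript. At a threshold of 5 RPKM 1 gene of that list remained counted. The share of P4HB was 24.8% with exon union, 33.6% with principal transcript and 31.2% of reads, against 45.8%. PDIA3, not called, turned to 0.0285 (log2) with replicate 2 rescaled. Leaving out either replicate kept 4 members and 7 list genes at 1 RPKM and gave a P4HB share of 45.0% to 46.6%. No paired analysis was possible because both libraries belong to the same group. Depth limits PDIA2, TXNDC5 and PDIA5, with 5 to 55 reads a library.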
